A study of Mus musculus with 9 samples.

Results

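The genes described here were 10 p53 targets, GADD45 genes, and BCL2 family genes, taken by name from the 24341 genes of the deposited table. Its unit is FPKM, fragment numbers scaled for transcript length and library size. They were Cdkn1a, Mdm2, Ccng1, Bax, and Bbc3, the 3 paralogs Gadd45a, Gadd45b, and Gadd45g, and the survival genes Mcl1 and Bcl2l1. Each was measured in bulk liver RNA from 9 WT C57BL/6 mice. Of these, 3 mice (numbers 2, 5, and 9) received anti-CD40, the agonist CD40 antibody FGK45, and 6 mice (numbers 3, 4, 7, 8, 11, and 12) were controls given PBS. Livers were collected 48 hours after treatment, and per the study's methods the mice were sex-matched and 8 to 12 weeks of age unless stated otherwise. The methods also state that anti-CD40 mice whose blood B cells did not fall were left out of analysis. All 10 genes passed the filter of a mean of 0.1 FPKM, as did 13807 genes in all.

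The transcription factor p53 (gene Trp53) is held low in unstressed cells by the ubiquitin ligase MDM2 and accumulates after DNA damage and other stresses. It then activates genes that arrest the cell cycle, such as Cdkn1a, genes that switch p53 off again, such as Mdm2, and genes that permit apoptosis, such as Bax and Bbc3. GADD45 proteins are small stress sensors that bind cell cycle and stress kinases, and their genes also respond to inflammatory signals. BCL2 family proteins decide whether the outer mitochondrial membrane is breached: MCL1 and BCL-xL (gene Bcl2l1) hold BAX and BAK in check, and both are known to protect hepatocytes. The comparison asks how these genes stood in a liver inflamed by CD40 activation.

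The composition of the liver RNA differed widely between the groups. The hepatocyte markers, which define the labelled tissue, were present in every mouse, but their summed level was 4755 to 5846 FPKM after anti-CD40 against 13838 to 24561 FPKM in controls. The summed level of 9 neutrophil markers was 4231 to 5221 FPKM against 19.2 to 157 FPKM, and that of 6 Kupffer cell markers was 39.0 to 50.7 FPKM against 285 to 456 FPKM. The defining Kupffer cell marker Clec4f was at the floor of the table, 0.01 FPKM, in anti-CD40 mouse 2. In bulk tissue, fewer cells of a type and less RNA per cell cannot be told apart. A pair of mice stood apart from their groups: control mouse 4 had 50531 FPKM of erythroid genes against 7494 to 13469 FPKM in the other controls, and anti-CD40 mouse 5 had 1036 FPKM of pancreatic acinar genes against 27.7 and 32.5 FPKM in mice 2 and 9. Relative depth, read from the smallest steps of the values, ranged from 0.870 to 1.13 between mice, and total reads are not known.

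The 250 bases before each RefSeq start (build GRCm38.p6, the same coordinates as mm10) were searched for 7 short motifs on both strands. Bases outside these windows, introns among them, were not searched, so a match need not be a known p53 site of the gene. The p53 decamer, a single copy of the repeat that makes up a p53 response element, was present in 5 of 10 genes, against 7.13% of all 32851 windows of that length. The first share counts genes, some with several windows, and the second counts windows. Genes were listed partly because they are p53 targets, so a high share of this motif was built into the choice and is no result. The windows with the decamer follow, 5′ to 3′ on the gene's strand, with the decamer in capitals. They are printed because these genes share a motif. Cdkn1a, Mdm2, and Bax were called higher after anti-CD40, and Ccng1 and Gadd45a were not called.
Cdkn1a, chr17:29090729-29090978, plus strand: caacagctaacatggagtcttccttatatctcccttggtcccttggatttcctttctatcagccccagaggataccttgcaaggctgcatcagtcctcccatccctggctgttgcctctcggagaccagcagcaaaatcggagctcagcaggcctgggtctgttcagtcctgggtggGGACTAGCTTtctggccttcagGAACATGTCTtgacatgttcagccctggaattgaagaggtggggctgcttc
Mdm2, chr10:117710759-117711008, minus strand: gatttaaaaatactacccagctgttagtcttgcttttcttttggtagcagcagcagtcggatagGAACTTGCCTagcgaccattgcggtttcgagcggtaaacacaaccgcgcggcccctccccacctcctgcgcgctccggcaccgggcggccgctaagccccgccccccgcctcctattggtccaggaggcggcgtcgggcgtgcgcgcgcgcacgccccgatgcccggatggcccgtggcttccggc
Bax, chr7:45466899-45467148, minus strand: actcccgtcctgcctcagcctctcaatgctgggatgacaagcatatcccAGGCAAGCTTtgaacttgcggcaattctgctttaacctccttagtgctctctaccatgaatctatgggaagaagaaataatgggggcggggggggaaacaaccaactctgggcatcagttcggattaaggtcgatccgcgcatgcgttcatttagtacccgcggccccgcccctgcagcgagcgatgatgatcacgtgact
Ccng1, chr11:40755287-40755536, minus strand: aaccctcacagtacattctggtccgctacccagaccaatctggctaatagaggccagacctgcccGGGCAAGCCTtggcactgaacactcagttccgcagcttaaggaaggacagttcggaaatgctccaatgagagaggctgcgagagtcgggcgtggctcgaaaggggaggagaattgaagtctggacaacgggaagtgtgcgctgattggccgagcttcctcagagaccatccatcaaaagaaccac
Gadd45a, chr6:67037408-67037657, minus strand: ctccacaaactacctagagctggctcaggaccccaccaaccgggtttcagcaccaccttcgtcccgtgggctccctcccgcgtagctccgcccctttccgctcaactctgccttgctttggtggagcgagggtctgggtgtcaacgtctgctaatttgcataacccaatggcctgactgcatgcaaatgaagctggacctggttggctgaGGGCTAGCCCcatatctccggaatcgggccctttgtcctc

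Of the 2 Cdkn1a windows, only the upstream one, printed above, held the decamer, 73 and 51 bases before its start. The window of the downstream start (chr17:29093519-29093768) held none. In the other genes the decamer began 186 bases (Mdm2), 201 bases (Bax), 185 bases (Ccng1), and 40 bases (Gadd45a) before the start. The NF-kB consensus was found in Bbc3 and Bcl2l1, or 2 of 10 genes, against 7.25% of all windows, and the GC box GGGCGG in 7 of 10 genes against 32.7%. CCAAT was found in 6 of 10 genes against 33.8%. The STAT motif TTCNNNGAA, the AP-1 motif TGANTCA, and the CRE motif TGACGTCA were in no window of the 10 genes, against 7.02%, 6.75%, and 1.55% of all windows. A second RefSeq start gave Cdkn1a 2 windows, and Bbc3 and Bcl2l1 had 3 each, so these had more chances to hold a motif. A match describes the letters of a window and is not a measured binding site.

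Of the 10 genes, 6 were called at a limma adjusted p under 0.05 (Benjamini-Hochberg over all genes tested), beside a background of 45.1% of all genes called. Cdkn1a, Mdm2, Bax, Gadd45b, and Gadd45g were higher after anti-CD40, where 23.5% of all genes were called higher, and Bbc3 was lower, where 21.7% were called lower. Ccng1, Gadd45a, Mcl1, and Bcl2l1 were not called. The same 6 genes had anti-CD40 and control mice that did not overlap, against 42.4% of all genes. The median log2 fold change was 0.71 over the 10 genes and 0.0056 over all genes tested. The count of called genes is read against that background and is no result about the set, so each gene is described by its own values. Every fold change given here is on the log2(FPKM + 0.1) scale, and SDs are between mice (n = 3 anti-CD40, n = 6 control). FPKM divides by transcript length while these libraries read only 3′ ends, so levels are compared between mice and not between genes.

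**Figure D1:**
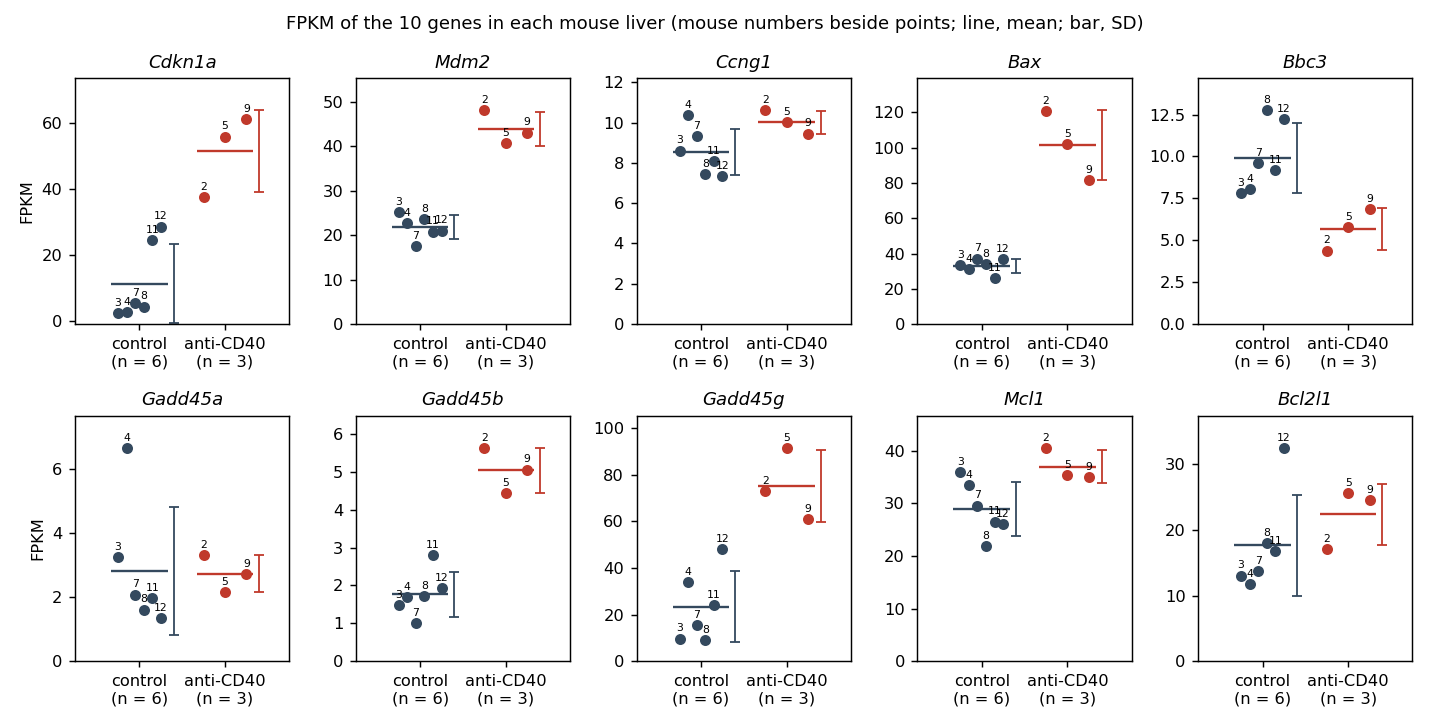
FPKM of each of the 10 genes in every mouse, with the mouse number beside each point, a line at the group mean, and a bar for the SD (n = 6 control, n = 3 anti-CD40); each panel has its own linear axis. Mdm2, Bax, Gadd45b, Gadd45g, and Cdkn1a sit above all controls after anti-CD40, Bbc3 sits below all controls, and control mice 11 and 12 lift the Cdkn1a control mean.

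Cdkn1a had the largest increase of the 10 genes. It encodes p21, the cyclin-dependent kinase inhibitor through which p53 stops the cell cycle, and lies at chr17:29090986-29100722. Mouse 2 had 37.5 FPKM after anti-CD40, mouse 5 had 55.7, and mouse 9 had 61.1. The 6 controls ran from 2.24 to 28.5 FPKM with a median of 4.78 FPKM. The controls fell apart into 4 mice between 2.24 and 5.29 FPKM and mice 11 and 12 at 24.4 and 28.5 FPKM, so that even the highest control stayed below every anti-CD40 mouse. Group means were 51.4 ± 12.3 FPKM after anti-CD40 and 11.2 ± 11.9 FPKM in controls, a log2 fold change of 2.87 (SE 0.79), or 7.32-fold with a 95% confidence interval of 2.18 to 24.6 (limma adjusted p = 0.0128). This fold change was above 97.7% of the genes tested. The exact permutation test over the 84 ways to divide 9 mice into 3 and 6 gave p = 0.0238, the smallest it can give. The call was lost when low genes were kept in the limma fit (adjusted p = 0.0565), and when control mouse 4 and anti-CD40 mouse 5 were left out (log2 fold change 2.54, adjusted p = 0.0579).

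Mdm2, the ubiquitin ligase that closes the feedback loop on p53, was 2.02-fold higher with little spread. It lies at chr10:117688875-117710758, on the minus strand. Levels were 48.0, 40.6, and 43.1 FPKM after anti-CD40, while controls lay between 17.6 and 25.1 FPKM with a median of 21.9 FPKM. No control came near the lowest anti-CD40 mouse. The means of 43.9 ± 3.77 and 21.8 ± 2.63 FPKM gave a log2 fold change of 1.01 (SE 0.13), or 2.02-fold with an interval of 1.66 to 2.45 (limma adjusted p = 1.09e-04, exact p = 0.0238). Unlike Cdkn1a, whose controls varied by 12.7-fold from lowest to highest, the Mdm2 controls varied by 1.43-fold.

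Ccng1 encodes cyclin G1, a p53 target that also acts on MDM2 through a phosphatase, and it lies at chr11:40748552-40755286. It stood at 10.6, 10.02, and 9.45 FPKM in anti-CD40 mice and between 7.36 and 10.4 FPKM in controls, with a median of 8.36 FPKM. All 3 anti-CD40 mice were above the control median, but control mouse 4 lay among them. The log2 fold change of 0.24 (SE 0.13, 95% confidence interval -0.05 to 0.53) was not called (limma adjusted p = 0.164, exact p = 0.0952). Its interval lay wholly below that of Mdm2. Tested within each mouse, the Mdm2 to Ccng1 ratio was 1.71-fold higher after anti-CD40, with no overlap between groups (exact permutation p = 0.0238, adjusted over 10 pairs 0.0476).

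Of the GADD45 paralogs, Gadd45b and Gadd45g were called higher and Gadd45a was not called, and the differences between them were tested as ratios. Gadd45b, at chr10:80930091-80932204, is the member known as a target of NF-kB and TGF-beta signaling. It was measured at 5.62, 4.43, and 5.05 FPKM after anti-CD40 and at 1.001 to 2.79 FPKM in controls, with a median of 1.70 FPKM. Every anti-CD40 mouse was above the highest control, mouse 11. The means of 5.03 ± 0.592 and 1.77 ± 0.594 FPKM gave a log2 fold change of 1.51 (SE 0.25), or 2.85-fold with an interval of 1.93 to 4.21 (limma adjusted p = 7.53e-04, exact p = 0.0238).

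Gadd45g, known for its induction by cytokines, lies at chr13:51846675-51848474. Its levels were 72.9, 91.5, and 61.0 FPKM after anti-CD40. Controls ran from 9.19 to 48.1 FPKM with a median of 19.9 FPKM. The control range was wide, at 5.23-fold from lowest to highest, and the highest control was again mouse 12, but the groups did not overlap. Means of 75.1 ± 15.4 and 23.5 ± 15.3 FPKM gave a log2 fold change of 1.92 (SE 0.49), or 3.78-fold with an interval of 1.77 to 8.05 (limma adjusted p = 0.00910, exact p = 0.0238).

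Gadd45a, the paralog most closely tied to p53, lies within chr6:67035096-67080652, a listed position it shares with the RNA E230016M11Rik. That neighbor was low in all mice (0.031 to 0.28 FPKM) and was not called (limma adjusted p = 0.409). Gadd45a was measured at 3.32, 2.17, and 2.73 FPKM after anti-CD40, inside the control range of 1.36 to 6.66 FPKM (median 2.03 FPKM). Control mouse 4, the mouse with the high erythroid values, was the highest of all 9 at 6.66 FPKM, and the next control was mouse 3 at 3.24 FPKM. The log2 fold change was 0.15 (SE 0.42, interval -0.78 to 1.09) and was not called (limma adjusted p = 0.790, exact p = 0.714). As a fold change that interval ran from 0.581 to 2.13, so a change of either sign was within it. Within mice, the Gadd45b to Gadd45a ratio was 2.56-fold higher after anti-CD40 (exact permutation p = 0.0238, adjusted over 10 pairs 0.0476). The Gadd45g to Gadd45a ratio was 3.40-fold higher with overlapping groups (adjusted exact p = 0.102), and the Gadd45g to Gadd45b ratio 1.33-fold higher (adjusted exact p = 0.556), so neither difference passed the test.

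**Figure D2:**
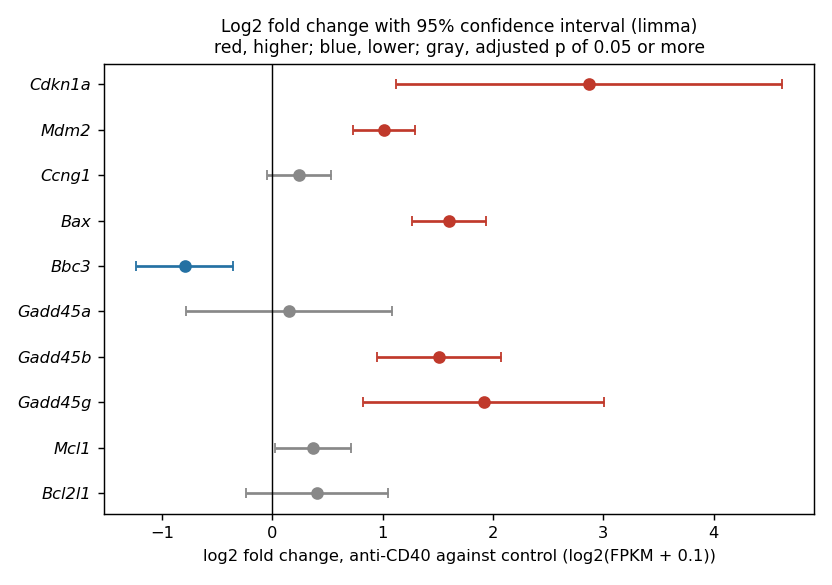
Log2 fold change of each of the 10 genes, anti-CD40 against control, on the log2(FPKM + 0.1) scale; points are limma estimates from 3 and 6 mice and bars their 95% confidence intervals. Cdkn1a has the largest estimate (2.87) and the widest interval (1.12 to 4.62), Mdm2 and Bax are narrow and wholly above 0, and Bbc3 (-0.79) is wholly below 0.

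Bax and Bbc3, both p53 targets that promote apoptosis, moved in opposite directions. BAX is an effector that forms pores in the outer mitochondrial membrane, and its gene lies at chr7:45461695-45466898. Bax was measured at 120.8, 102, and 81.5 FPKM after anti-CD40 and at 26.3 to 37.1 FPKM in controls, with a median of 33.5 FPKM. The lowest anti-CD40 mouse was far above the highest control. The means of 101 ± 19.7 and 33.1 ± 4.03 FPKM gave a log2 fold change of 1.60 (SE 0.15), or 3.04-fold with an interval of 2.41 to 3.83 (limma adjusted p = 1.66e-05, exact p = 0.0238).

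Bbc3 encodes PUMA, a BH3-only protein that neutralizes the survival members and activates BAX, and lies at chr7:16309583-16318334. After anti-CD40, mouse 2 had 4.38 FPKM, mouse 5 had 5.80, and mouse 9 had 6.86. In controls it ranged from 7.84 to 12.7 FPKM with a median of 9.39 FPKM. All 6 controls were above the highest anti-CD40 mouse, although mouse 9 and control mouse 3 were close. Means of 5.68 ± 1.24 and 9.94 ± 2.09 FPKM gave a log2 fold change of -0.79 (SE 0.20), or 0.577-fold with an interval of 0.426 to 0.781 (limma adjusted p = 0.00768, exact p = 0.0238). When Saa1, Saa2, and Saa3, which reached 25.4% or more of the summed FPKM after anti-CD40, were left out and the rest rescaled, the median of all genes rose by 0.35 and the Bbc3 call was lost (log2 fold change -0.43, adjusted p = 0.0654). Against that new median the change was -0.78. Within mice, the Bax to Bbc3 ratio was 5.27-fold higher after anti-CD40 (exact permutation p = 0.0238, adjusted over 10 pairs 0.0476).

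The survival genes Mcl1 and Bcl2l1 were not called. MCL1 is a short-lived protein that binds BAK and BH3-only proteins, and its gene lies at chr3:95658721-95663178. Mcl1 stood at 40.6, 35.4, and 35.0 FPKM after anti-CD40 and between 22.0 and 36.0 FPKM in controls, with a median of 28.1 FPKM. Control mouse 3 lay above 2 of the anti-CD40 mice. The log2 fold change was 0.37 (SE 0.16, interval 0.02 to 0.72), with a limma adjusted p of 0.0778 and an exact p of 0.0714. It was called under quantile normalization (0.59, adjusted p = 0.0136) and without control mouse 3 (0.44, adjusted p = 0.0393) or control mouse 4 (0.41, adjusted p = 0.0479).

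Bcl2l1 lies at chr2:152754173-152831728, a listed position that also holds Cox4i2, which was at the floor except in control mouse 7 (0.278 FPKM). It was measured at 17.1, 25.6, and 24.5 FPKM after anti-CD40. Controls ran from 11.8 to 32.5 FPKM with a median of 15.3 FPKM. Control mouse 12, at 32.5 FPKM, was above every other mouse, and the next highest control was mouse 8 at 18.04 FPKM. The log2 fold change was 0.41 (SE 0.29, interval -0.23 to 1.05), with a limma adjusted p of 0.278 and an exact p of 0.286. Without control mouse 12 it was 0.60 and was called (adjusted p = 0.0241). Control mouse 12 was also the highest control for Cdkn1a and Gadd45g, and had the highest summed hepatocyte markers; whether these values are related was not tested. After the rescaling without the Saa genes, Ccng1 (0.60, adjusted p = 0.00729), Mcl1 (0.73, adjusted p = 0.00587), and Bcl2l1 (0.77, adjusted p = 0.0336) were called higher as well.

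Bax was compared with Mcl1 and with Bcl2l1 as a ratio within each mouse, in which sample scale cancels. Transcript length cancels only in the difference between groups, so the ratio itself is no measure of relative amounts. Other survival genes were not paired with Bax. Bcl2 (log2 fold change 2.13) and the Bcl2a1 sum (4.53) rose more than Bax (1.60), and Bcl2l2 was not called. Cell composition also differed between the groups, so ratios in bulk RNA do not describe the balance within a cell. The log2 ratio of Bax to Bcl2l1 was 1.73 to 2.81 after anti-CD40 and 0.18 to 1.43 in controls, a 2.29-fold higher ratio. For Bax to Mcl1 the ranges were 1.22 to 1.57 and -0.11 to 0.62, a 2.35-fold higher ratio. Both pairs of groups were separate, and both passed the exact permutation test (p = 0.0238, adjusted over 10 pairs 0.0476). The Mcl1 to Bcl2l1 ratio had nearly the same mean log2 value in the groups, 0.74 ± 0.43 and 0.78 ± 0.71, and the groups overlapped (adjusted exact p = 0.857). Among the p53 targets, the Cdkn1a to Mdm2 ratio was 3.63-fold higher and the Cdkn1a to Ccng1 ratio 6.21-fold higher, but the groups overlapped and neither passed after adjustment (exact permutation test, adjusted p = 0.149 and 0.0794). In all, 5 of 10 pairs passed. All 5 were tied at the smallest exact permutation p of 0.0238, and the adjusted value of 0.0476 rests on that tie. Pairs that share Bax are not independent of each other. Leaving out a single mouse cannot make separate groups overlap, so it is no check on the 5 pairs that passed. The exact permutation test then gives its smallest p by necessity (0.0357 or 0.0714), which is too large to pass after adjustment here.

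**Figure D3:**
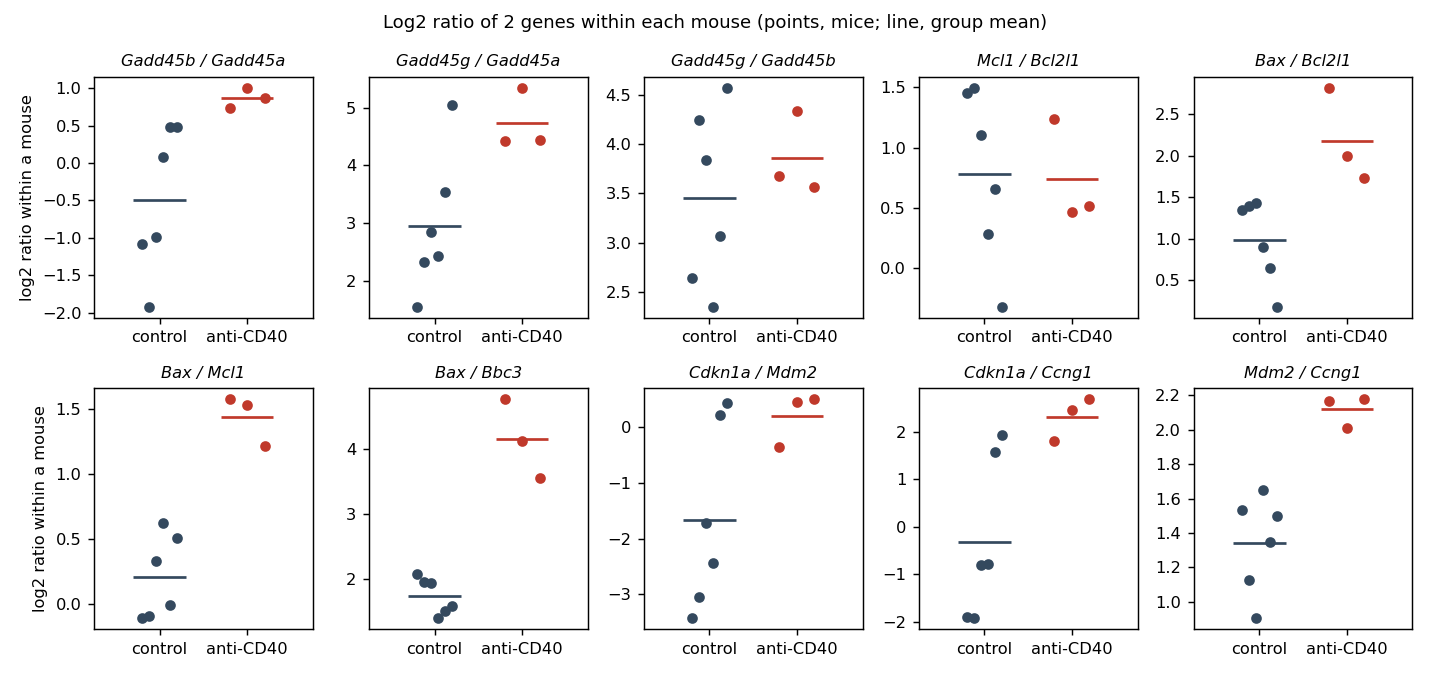
Log2 ratio of a pair of genes within each mouse for the 10 pairs compared (points, mice; line, group mean; axes differ between panels). The groups are separate for Gadd45b to Gadd45a, Bax to Bcl2l1, Bax to Mcl1, Bax to Bbc3, and Mdm2 to Ccng1, and overlap for the other 5 pairs.

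Beside a background of 23.5% of all genes called higher and 21.7% lower, 18 further BCL2 family genes were tested. Of these, 9 were higher, 3 were lower, and 6 were not called, with a median log2 fold change of 0.55. Bcl2 itself, the founding survival gene, rose from 0.808 ± 0.120 to 3.88 ± 0.671 FPKM (log2 fold change 2.13, limma adjusted p = 6.45e-06). The Bcl2a1 genes, NF-kB-inducible survival genes of leukocytes, rose most: Bcl2a1a by 4.55, Bcl2a1b by 4.40, and Bcl2a1d by 4.57 on the log2 scale. These are near-identical copies whose reads cannot be assigned with certainty, so their sum is the safer value: 101, 81.9, and 70.6 FPKM after anti-CD40 against 1.79 to 8.64 FPKM in controls, a log2 fold change of 4.53 (exact permutation p = 0.0238). The highest control was mouse 4, which also had the highest neutrophil marker sum among controls, at 157 FPKM. Neutrophil markers were higher in 9 of 9 cases, and monocyte and macrophage markers in 6 of 8 (summed level of all 8, 285 to 401 FPKM against 45.3 to 80.5 FPKM). Of these 8, Adgre1 was lower (log2 fold change -1.49, limma adjusted p = 0.00209), and Csf1r was not called (-0.62, limma adjusted p = 0.0837). The part of neutrophils, monocytes, and macrophages in the Bcl2 and Bcl2a1 values was not tested. Bcl2l2, which encodes the survival protein BCL-w, was at 0.734 ± 0.134 and 0.726 ± 0.203 FPKM (limma adjusted p = 0.901).

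Among the effectors, Bok rose beside Bax, from 6.50 ± 0.971 to 22.0 ± 1.47 FPKM (log2 fold change 1.76, limma adjusted p = 6.70e-06). Bak1, the partner of BAX that MCL1 restrains, stood at 18.2 ± 1.65 and 14.96 ± 2.44 FPKM and was not called (log2 fold change 0.29, limma adjusted p = 0.156). The BH3-only genes, whose products sense stress and start apoptosis, were mixed. Pmaip1, which encodes the p53 target NOXA, rose from 0.743 ± 0.231 to 4.70 ± 0.925 FPKM (log2 fold change 2.53), Bcl2l11 (BIM) by 0.92, and Bid by 0.81 on the log2 scale. Bad was lower like Bbc3, with a log2 fold change of -0.50 (limma adjusted p = 0.00965). Bik (0.25, adjusted p = 0.302) and Bmf (-0.59, adjusted p = 0.178) were not called. NOXA and PUMA, both encoded by p53 targets, thus had transcripts called in opposite directions, each with groups that did not overlap.

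The remaining relatives were also mixed. Bcl2l14 rose from 0.142 ± 0.079 to 1.81 ± 0.108 FPKM (log2 fold change 3.06, limma adjusted p = 2.24e-05). Bnip3, which acts in mitophagy, fell from 106 ± 9.24 to 53.7 ± 7.14 FPKM (log2 fold change -0.99), and its relative Bnip3l was lower by a log2 fold change of -0.45. Bcl2l12 (-0.32, adjusted p = 0.193) and Bcl2l13 (-0.37, adjusted p = 0.166) were not called. Bcl2, Bak1, Bad, and Bcl2l12 each share a listed position with another gene, and how the authors counted overlapping genes is not stated. Bcl2l10 was at the floor in all 9 mice and was not tested.

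**Figure D4:**
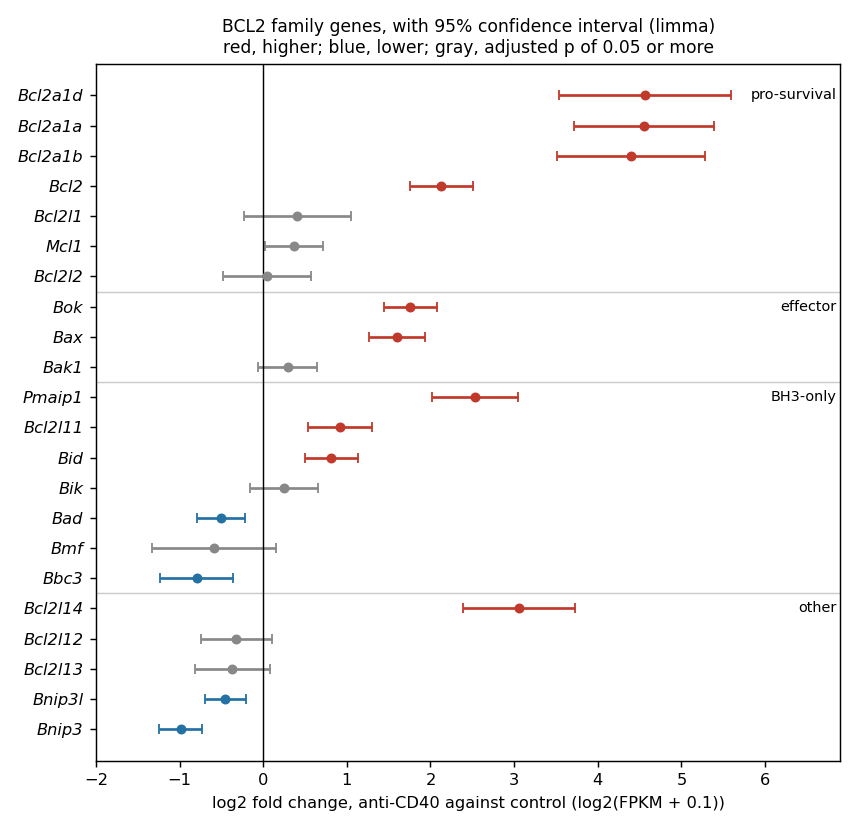
Log2 fold changes of 22 BCL2 family genes, grouped by role, with 95% confidence intervals from limma (3 anti-CD40 and 6 control mice). The Bcl2a1 genes and Bcl2 are higher while Mcl1, Bcl2l1, and Bcl2l2 have intervals that reach or nearly reach 0; Bok and Bax are higher, and the BH3-only genes run from Pmaip1 (2.53) to Bbc3 (-0.79).

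Beyond the members, 28 further p53 targets were tested, beside a background of 23.5% of all genes called higher and 21.7% lower. Of these targets, 12 were higher, 5 lower, and 11 not called, with a median log2 fold change of 0.56. The 3 largest increases were in Pmaip1 (2.53), Apaf1 (2.20), the scaffold of the apoptosome, and Tnfrsf10b (2.18), a TRAIL death receptor. Close behind were Psrc1 (2.04) and Gtse1 (2.00), named here after their values were seen. Apaf1 rose from 0.562 ± 0.190 to 2.84 ± 0.310 FPKM and Tnfrsf10b from 0.0794 ± 0.0516 to 0.692 ± 0.105 FPKM. The control means of Tnfrsf10b, Psrc1 (0.081 FPKM), and Gtse1 (0.081 FPKM) were below 0.1 FPKM. These genes passed the filter only through their anti-CD40 values, and their fold changes depend on the added 0.1. The largest decreases were in Rps27l (-0.89), which encodes a ribosomal protein relative that binds MDM2, Ei24 (-0.83), and Fdxr (-0.77), a mitochondrial ferredoxin reductase. Rps27l stood at 455 ± 24.2 FPKM after anti-CD40 and 848 ± 113 FPKM in controls. The other two that were lower, named here after their values were seen, were Perp (-0.56, limma adjusted p = 0.00242) and Triap1 (-0.39, limma adjusted p = 0.0109). The remaining higher targets, named in the same way, were Eda2r (1.91), Btg2 (1.80), Fas (1.12), Zmat3 (0.84), Trp53inp1 (0.84), Polk (0.76), and Ppm1d (0.45). Sesn2, Ddb2, and Pidd1 were below the filter.

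Trp53 itself was measured at 2.17 ± 0.265 FPKM after anti-CD40 and 1.53 ± 0.347 FPKM in controls. The log2 fold change of 0.50 (interval 0.05 to 0.95) was not called (limma adjusted p = 0.0663), and the groups overlapped. Transcript levels do not measure p53 protein, which is controlled mainly by its breakdown. For p53 and its regulators, 14 genes were tested, beside a background of 23.5% of all genes called higher and 21.7% lower. Of these 14, 3 were higher, 1 was lower, and 10 were not called, with a median of 0.20. The higher genes were the checkpoint kinase Chek1 (log2 fold change 2.096), Cdkn2a (2.06), which encodes p16 and the MDM2 inhibitor ARF, and the p53 acetyltransferase Ep300 (0.75). Rfwd2, a ubiquitin ligase for p53, was lower (-0.54, limma adjusted p = 0.00523), at a position shared with other genes.

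For the cyclins, kinases, and PCNA that p21 binds, 12 genes were tested, beside a background of 23.5% of all genes called higher. Of these 12, 8 were higher and 4 not called, with a median log2 fold change of 0.89. Ccna2 rose from 0.766 ± 0.252 to 8.58 ± 1.47 FPKM (log2 fold change 3.37, limma adjusted p = 7.12e-06), Ccnb1 by 3.05, and Ccne1 by 2.92 on the log2 scale. All 10 markers of cycling cells were higher as well, with a summed level of 52.9 to 65.8 FPKM against 9.03 to 15.3 FPKM. Ccna2, Ccnb1, Cdk1, and Pcna are in both lists, so the counts of these lists are not separate. Whether the cells with Cdkn1a are those with cyclins cannot be read from bulk RNA. Of 7 other genes named as CDK inhibitors, 4 were higher and 1 lower (median 0.74). All carry a Cdkn symbol, which does not show that the product acts on a CDK as p21 does. Cdkn3 rose by 2.26, Cdkn2a by 2.06, and Cdkn2b by 1.96 on the log2 scale. Cdkn1c, which encodes p57, fell from 2.21 ± 0.561 to 0.780 ± 0.0715 FPKM (log2 fold change -1.36, limma adjusted p = 4.67e-04).

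Of 8 genes for GADD45 partners and the p38 and JNK kinases, 1 was higher, 4 were lower, and 3 were not called, with a median log2 fold change of -0.29. Over all genes tested, 23.5% were called higher and 21.7% lower. Map2k6 fell from 1.23 ± 0.415 to 0.400 ± 0.148 FPKM (log2 fold change -1.39), and Map2k3, like Map2k6 an activator of p38, fell from 91.7 ± 7.06 to 56.8 ± 3.33 FPKM (-0.69). Map2k7, the JNK kinase that GADD45B binds, fell by 0.60 on the log2 scale (limma adjusted p = 0.00411). With the Saa genes left out, a log2 shift of 0.35 applies to these decreases too. It applies equally to all other decreases given here, including small ones such as Triap1 (-0.39) and Casp9 (-0.42). Lower calls among all genes went from 2990 to 1647 with that rescaling. Which of the decreases in the lists kept their call is not given here.

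Genes that control MCL1 turnover showed 1 increase and 1 decrease among 6 tested (median 0.26). Ier3, an immediate early gene, rose from 5.98 ± 2.30 to 61.7 ± 2.87 FPKM (log2 fold change 3.42, limma adjusted p = 5.41e-06), and Btrc, a ubiquitin ligase subunit, was lower (-0.46, limma adjusted p = 0.0264). In the apoptosome and caspase list, 4 of 12 genes were higher, 1 lower, and 7 not called (median 0.014). Birc3 (2.23) and Birc2 (1.63), which encode the inhibitors of apoptosis cIAP2 and cIAP1, were among the higher genes with Apaf1, and the initiator caspase gene Casp9 was lower (-0.42, limma adjusted p = 0.0269), at a position shared with another gene, as is that of Ccna2. NF-kB targets, the list with the highest median of the 9, had 9 of 11 genes higher and 2 not called (median 2.55), led by Traf1 (4.80), Relb (3.28), and Nfkbie (3.20). These lists were compiled with earlier results of these mice known, so their counts describe the mice and are no independent support. The background for each count is 23.5% of all genes called higher and 21.7% called lower.

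**Figure D5:**
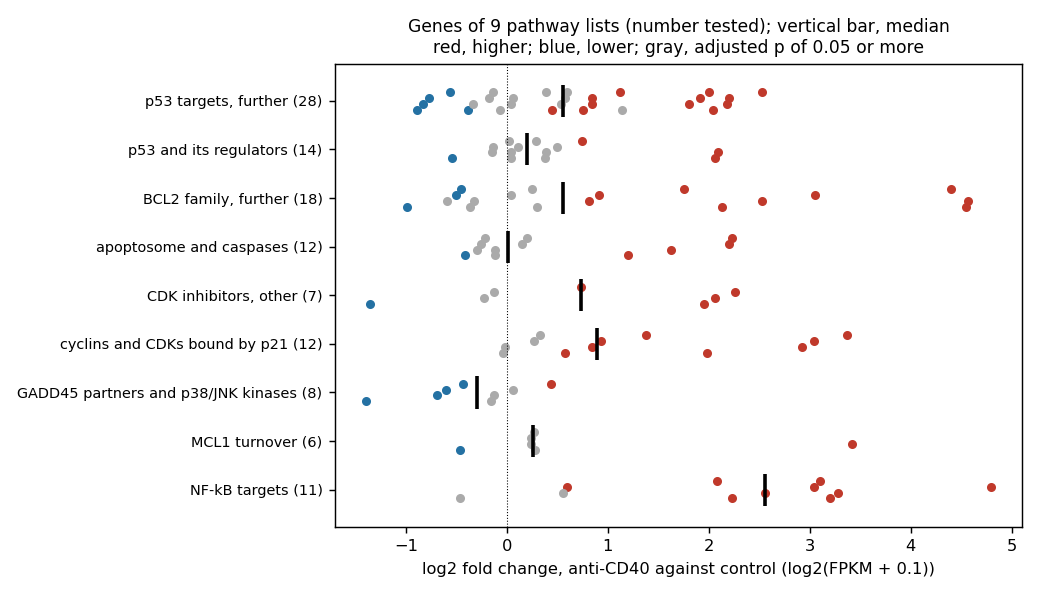
Log2 fold change of every tested gene in 9 pathway lists, anti-CD40 against control, with the number tested in brackets and a vertical bar at each list's median; genes are in more than 1 list in a few cases. The median runs from -0.29 for GADD45 partners and p38/JNK kinases to 2.55 for NF-kB targets, while the p53 target list spreads to both sides of 0.

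The genes whose pattern over the 9 mice lay closest to each member were found among 10154 genes with a mean of at least 1 FPKM, as the root mean square (RMS) difference of log2 values centered on the control mean. Mdm2 was closest to Ets2 (RMS 0.113), Med15 (0.114), and Nampt (0.127), and Bax to Snx10 (0.152), Hk2 (0.161), and Galnt7 (0.172). Ets2 ran from 24.5 to 33.6 FPKM after anti-CD40 and from 11.6 to 15.8 FPKM in controls. Bbc3 was closest to Rdh5 (0.107), Gpr146 (0.117), and Klhl17 (0.133), which were lower by log2 fold changes of -0.68, -0.82, and -0.64. Ccng1 had the tightest neighbors, Anapc1 (0.045), Fbxo33 (0.055), and Dhx15 (0.057), and Mcl1 lay near Erlec1 (0.085), Tmem65 (0.091), and Fam179b (0.094). Among the members themselves, the closest pair was Ccng1 and Mcl1 (0.153).

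Neighbors of the GADD45 genes differed by paralog. Gadd45b was closest to Rbm38 (RMS 0.209), Atg16l2 (0.227), and Hilpda (0.245), and Gadd45g to Egfr (0.335), Lpxn (0.474), and Vcam1 (0.478). Egfr, the epidermal growth factor receptor, shared the wide control spread of Gadd45g, from 23.9 FPKM in mouse 3 to 115.7 FPKM in mouse 12. Gadd45a was closest to Zcchc14 (0.219), Fmr1 (0.252), and Gnai3 (0.259), each highest in control mouse 4. Bcl2l1 was closest to Rasgef1b (0.136), Chd7 (0.142), and Srd5a3 (0.178). Cdkn1a had no near neighbor, with Lrg1 at 0.808, Cyb561 at 0.882, and Rad51b at 0.885. Likeness over 9 mice is a description, and the mice share the treatment contrast.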

How the data were processed

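The authors prepared 3′ end libraries (QuantSeq FWD, Illumina NextSeq) from liver RNA of 9 mice, used STAR within BaseSpace for alignment to mm10, and deposited FPKM values from Cufflinks and Cuffdiff. The annotation used and the handling of overlapping genes are not given in the sources used here. FPKM were tested as log2(FPKM + 0.1), with no added scaling, in the 13807 genes with a mean of at least 0.1 FPKM, after 15 genes with a failed estimate were removed from 24341. A linear model with treatment alone was fitted in limma 3.58.1 (R 4.3.3) with a trended eBayes prior. Tests were 2-sided, and genes were called at a Benjamini-Hochberg adjusted p under 0.05. Single genes and within-mouse ratios also had exact 2-sided permutation tests over 84 divisions of the mice. Python 3.11.15, numpy 2.4.6, pandas 2.3.3, and matplotlib 3.10.9 did the rest, and the scripts were tested on simulated data. Promoter sequences came from RefSeq (GRCm38.p6), where all 10 genes matched by symbol. Read totals are not known, so no counting interval is given. Of 3381 low genes examined, 73.2% had values that came out as whole reads within 2%, too few for a test on counts.

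The 10 genes, 9 pathway lists, and 12 marker lists were chosen with earlier results of these data known. The genes named were the 10 members, all tested genes of the further BCL2 family list, Trp53, the 3 largest increases and decreases of each other pathway list among called genes with separate groups, and the 3 nearest profiles of each member. Genes marked as named after their values were seen were added to these. Mice are separate animals, and the labels name no batch. Marker lists not described above gave these counts: B cell markers 4 of 4 higher, T and NK cell markers 6 of 7 higher, endothelial markers 2 higher and 2 lower of 6, stellate cell and fibroblast markers 3 higher and 1 lower of 6, cholangiocyte markers 2 of 5 higher, hepatocyte markers 1 higher and 7 lower of 10, and Kupffer cell markers 6 of 6 lower. No pancreatic acinar marker of 9 and no erythroid marker of 5 was called by limma. Over all genes tested, 23.5% were called higher and 21.7% lower.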

Additional observations from a re-analysis of the deposited data

Results flagged for a closer look

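In the 6 controls, Gadd45a in mouse 4 (6.66 FPKM) stood apart from the others: its gap to the next mouse was 0.645 of the whole control range, above Dixon's 95% critical value for a group of this size. Bcl2l1 in control mouse 12 (32.5 FPKM) stood apart by 0.700 of the range. Both gaps were taken on FPKM and not on the log2 scale of the tests, where a high value stands apart less. With 20 groups of 6 examined, about 1 such case is expected by chance, and the 3 anti-CD40 mice were too few to examine.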

How the results depend on the processing

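Over 20 alternatives the number of genes called ranged from 4814 to 7377 (6230 as reported), of members from 5 to 8, and of pathway list genes from 53 to 73 (63 as reported), all within 1.5 times. Of 200 values for single members, 188 kept their direction and side of the threshold, 3 lost the call, 7 gained it, and 2 changed sign: Gadd45a was -0.061 with quantile normalization and -0.0048 without control mouse 12, in a range of -0.0048 to 0.44 over the mice left out singly. Leaving out Saa1, Saa2, and Saa3 moved the share of calls that were higher from 52.0% to 77.4% (5635 higher, 1647 lower). With quantile normalization the pairs Gadd45g to Gadd45a (2.26) and Cdkn1a to Ccng1 (2.81, log2 difference) passed the test, and Mcl1 to Bcl2l1 changed sign (0.042). Without control mouse 4 and anti-CD40 mouse 5, where the smallest exact permutation p is 0.0952 and no pair can pass, Mcl1 to Bcl2l1 was 0.24, and the pairs that had passed were 1.01 (Gadd45b to Gadd45a), 1.37 (Bax to Bcl2l1), 1.13 (Bax to Mcl1), 2.45 (Bax to Bbc3), and 0.79 (Mdm2 to Ccng1). Leaving out single mice gave, in the same order, 1.07 to 1.55, 0.88 to 1.42, 1.17 to 1.35, 2.09 to 2.69, and 0.69 to 0.84. Separate groups stay separate when a mouse is left out, so each exact p was by necessity the smallest its design allows. That p (0.0357 or 0.0714) is too large to pass after adjustment. Mcl1 to Bcl2l1 ran from -0.29 to 0.10. The cause of these changes was not tested. No paired analysis was possible because the groups share no mouse numbers. Low genes are limited by counting at an unknown depth.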

Other observations

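The BH3-only gene Hrk, whose product HRK binds the survival proteins, was named after its values were seen, because it lay below the filter and in no test of the report. It was listed at the floor of 0.01 FPKM in all 3 anti-CD40 mice and between 0.0188 and 0.148 FPKM in the 6 controls. No test or fold is given.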
